A study of Mus musculus with 6 samples.

Results

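The genes described here encode the proteins of the cytosolic ribosome. They were taken by symbol as every row of the gene table that starts with Rpl, Rps or Rplp followed by a number and at most 1 of the letters a, x, y, l or s, without the S6 kinases and without named pseudogenes. The rule returned 80 of the 24060 genes, 49 of the large subunit (Rpl and Rplp) and 31 of the small subunit (Rps), and it used no measured value. RNA-seq was done on retinal ganglion cells (RGCs), the neurons that send the axons of the optic nerve, from C57BL/6 mice without any further allele or treatment. The comparison asks how RGCs at embryonic day 18 (E18), an age of strong axon growth, differ from RGCs at postnatal day 5 (P5), when that capacity has been lost. There were 3 E18 samples (replicates 1, 3 and 4) and 3 P5 samples (replicates 6, 8 and 9), all purified by immunopanning, in which papain-dissociated retinal cells are first depleted of macrophages and then held on dishes by an antibody against CD90 (Thy1). The labels name polyA RNA, whereas the protocol names ribosomal RNA depletion. In the count table, the name of the first E18 column also holds the numbers 2 and 5, and neither the number of animals per sample nor whether replicates are separate preparations is stated, so p-values measure the spread between these samples.

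A ribosome joins a small subunit, which reads the mRNA, to a large subunit, which forms the peptide bond and releases the growing chain through an exit tunnel. Its proteins are needed in equal numbers, apart from those of the stalk, and are assembled onto ribosomal RNA in the nucleolus. The mRNAs of vertebrate ribosomal proteins begin with a run of pyrimidines, the 5′ terminal oligopyrimidine (TOP) tract, through which mTOR signalling and the protein Larp1 control how many of them are translated. In growing neurons these mRNAs are also known as a major class of transcripts carried into axons.

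The sequence around the start sites was searched for runs of pyrimidines, which varied among members. Such a run can lie wholly before the listed start, as for Rps25 and Rpl10a below, and so is not by itself a TOP tract. RefSeq start sites on GRCm38.p6 were at hand for 59 of the 80 genes, with 71 starts in all. An unbroken run of at least 8 C or T on the sense strand within 15 bases of the start was present at 27 of the 71 starts (38.0%), against 12% of all 32851 starts in the same table. The 30 bases around the start are printed below, 5′ to 3′ on the gene's strand with 15 bases on each side of the start and with the longest pyrimidine run in capitals. The first set holds members with a long run, among them 3 of the members with the largest or smallest changes described below, Rpl35, Rps27 and Rpl38.
Rpl35: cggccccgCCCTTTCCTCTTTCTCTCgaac
Rps10: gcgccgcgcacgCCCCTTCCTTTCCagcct
Rplp2: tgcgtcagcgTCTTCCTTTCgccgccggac
Rps6: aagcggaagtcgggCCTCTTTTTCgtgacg
Rps27: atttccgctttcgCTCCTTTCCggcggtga
Rpl38: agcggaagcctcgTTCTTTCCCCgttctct
The second set holds members with a shorter run, shown because each departed from the other members in the results that follow.
Rps28: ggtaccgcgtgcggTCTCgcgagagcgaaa
Rps25: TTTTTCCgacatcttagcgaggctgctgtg
Rpl10a: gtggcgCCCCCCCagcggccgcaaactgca
The windows lie at chr2:39005117-39005146 for Rpl35 and chr17:27635230-27635259 for Rps10, both on the minus strand, at chr7:141447636-141447665 for Rplp2 on the plus strand, and at chr4:86857353-86857382 for Rps6 and chr3:90213634-90213663 for Rps27 on the minus strand. Those of Rpl38 (chr11:114668565-114668594), Rps25 (chr9:44407699-44407728) and Rpl10a (chr17:28328456-28328485) are on the plus strand, and that of Rps28 (chr17:33824548-33824577) is on the minus strand. Rpl10a has a further start in the table, and the window shown is around the first one listed.

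Before the genes are taken one by one, the samples need a short description. The samples held 81213639 to 114512853 reads assigned to genes, of which 0.0953% to 0.329% fell on the ribosomal transcript Rn45s, and normalization factors lay between 0.973 and 1.02. The 15 RGC markers listed were all detected above the filter on low counts, and 4 of them were higher (26.7%) and 5 lower (33.3%) at E18. Their summed level was 10662 to 12238 CPM (counts scaled to a common library size) at E18 and 10571 to 11724 CPM at P5. Thy1, the antigen used for panning, was among the lower ones. Its level was 212, 217 and 312 CPM at E18 and 500, 469 and 690 CPM at P5 (log2 fold change -1.16). Markers of microglia and macrophages summed to 3.61 to 5.34 CPM over all 6 samples and those of photoreceptors to 4.45 to 13.5 CPM. Over all genes tested 20.8% were higher and 22.5% lower at E18, the shares beside which these and the following counts stand. Markers of several other states were higher at E18 more often than that. Of 14 dividing-cell genes 9 were higher and 0 lower at E18, with sums of 344, 147 and 96.2 CPM in E18 replicates 1, 3 and 4 and of 79.8, 92.1 and 73.8 CPM in P5 replicates 6, 8 and 9, and none of the 14 was at 0 in any sample. Retinal progenitor genes were higher in 6 of 12, with sums of 665 to 972 CPM at E18 and 524 to 667 CPM at P5, immediate-early genes of the kind that cell dissociation can induce were higher in 8 of 12 and lower in 1, and nuclear and ribosomal RNAs were higher in 3 of 6 and lower in 1. Amacrine cell genes were higher in 5 and lower in 2 of 11 (median log2 fold change 2.43), with sums of 1210 to 1296 CPM at E18 and 1746 to 2222 CPM at P5. In several of these lists E18 replicates 1 and 3 stood apart from E18 replicate 4. The amacrine factor Tfap2b was at 47.5, 119 and 1.62 CPM at E18 and 1.02 to 1.55 CPM at P5, the progenitor factor Sox2 at 45.7, 69.3 and 0.950 CPM against 0.790 to 1.48 CPM, and Kdr, of the endothelial list, at 69.5, 62.9 and 14.1 CPM against 4.79 to 11.3 CPM. The part of all these markers in the results below was not tested, and in bulk samples fewer cells of a type and less RNA per cell cannot be told apart.

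Ribosomal protein mRNA was more abundant at E18 than at P5 in nearly every member. Summed over the 80 genes, the level was 18166, 18122 and 18146 CPM in E18 replicates 1, 3 and 4, and 13135, 13140 and 10991 CPM in P5 replicates 6, 8 and 9. The 3 E18 samples lay within 0.245% of each other, all were above every P5 sample, and P5 replicate 9 stood below the other two. The means were 18144 ± 22.2 CPM (SD, n = 3) at E18 and 12422 ± 1239 CPM (SD, n = 3) at P5, a ratio of 1.46. As a share of all reads counted on genes, the members took 1.76% to 1.86% at E18 and 1.11% to 1.32% at P5. The log2 ratio of the sums was 0.55 with all samples, 0.55 without E18 replicate 1, 0.56 without E18 replicates 1 and 3, and 0.46 without P5 replicate 9.

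**Figure D1:**
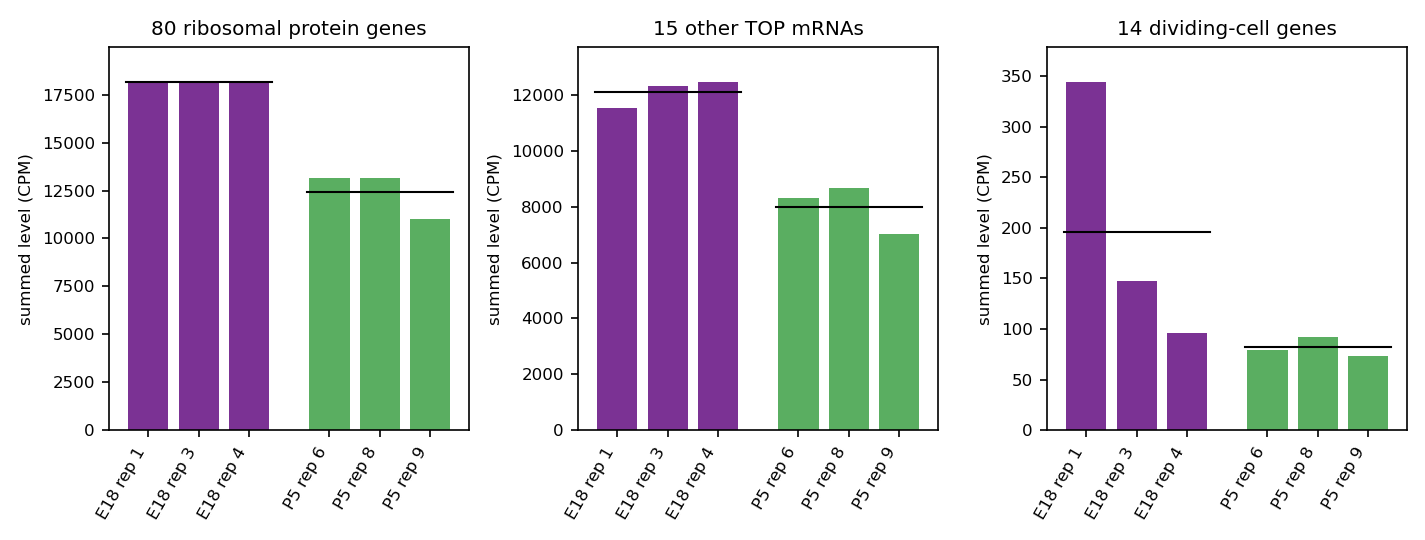
Summed level in CPM of the 80 ribosomal protein genes, of 15 other mRNAs known to carry a TOP tract and of 14 dividing-cell genes, with 1 bar per sample and a black line at the mean of each age. The ribosomal protein bars are level at E18 (18122 to 18166 CPM) and lower at P5 (10991 to 13140 CPM), and the dividing-cell bars run from 96.2 to 344 CPM within E18.

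Of the 80 genes, 78 passed the filter on low counts and were tested with edgeR's quasi-likelihood test, with Benjamini-Hochberg adjustment over all 16449 genes tested. At an adjusted p under 0.05, 70 of the 78 (89.7%) were higher at E18, 0 were lower and 8 passed in neither direction, while over all genes tested 20.8% were higher and 22.5% lower. No member was lower at E18 at an unadjusted p under 0.05 either, and DESeq2 also called 70 higher and 0 lower. The median log2 fold change of E18 over P5 was 0.56 (1.48-fold), with quartiles of 0.42 and 0.68 and a range from -0.16 to 1.02, and the median over all genes tested was 0.0047. Changes were thus moderate in size. Higher by at least 1.5-fold were 34 members (43.6%), against 12.6% of all genes tested, and 1 member, Rps27, was higher at E18 by more than 2-fold. All 3 E18 samples were above all 3 P5 samples for 72 of the 78, against 27.6% of all genes tested, and the reverse was seen for 0, against 28.5%. The 6 members whose ages overlapped were Rpl3, Rpl3l, Rpl26, Rps4l, Rps16 and Rps27l, of which Rps16 alone passed the test (adjusted p = 0.0385).

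**Figure D2:**
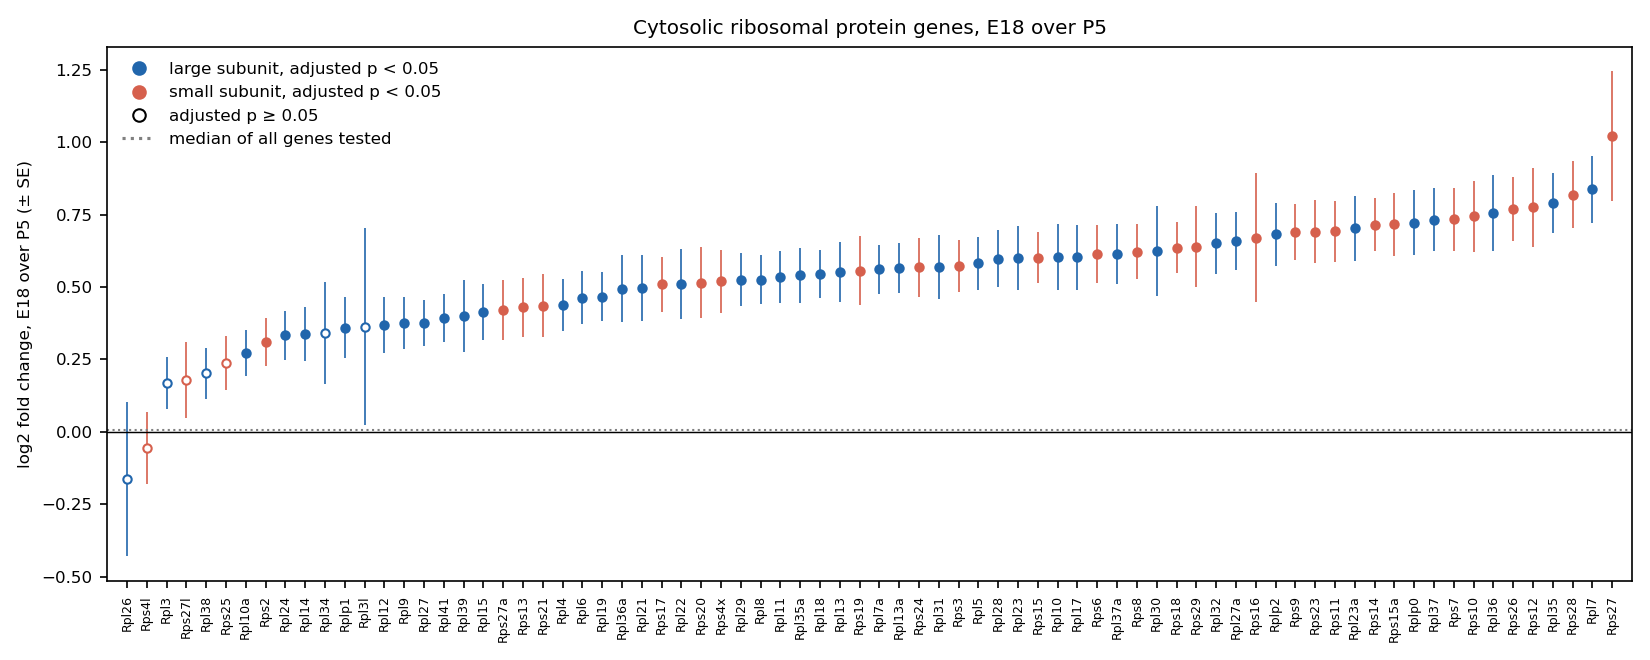
Log2 fold change of E18 over P5 for the tested members whose values are reported here, in ascending order, with bars for the standard error of the fit, blue for the large and red for the small subunit, and open circles for an adjusted p of 0.05 or more. Values run from -0.16 (Rpl26) to 1.02 (Rps27), all but Rpl26 and Rps4l are above 0 and the median of all genes tested is at the dotted line near 0.

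Genes of both subunits were higher at E18. Of the large subunit genes 42 of 47 tested were higher, with a median log2 fold change of 0.54, and of the small subunit genes 28 of 31, with a median of 0.62. Large subunit genes summed to 11351, 11416 and 11462 CPM at E18 and to 8395, 8359 and 7090 CPM at P5. Small subunit genes summed to 6815, 6705 and 6683 CPM at E18 and to 4740, 4781 and 3901 CPM at P5. The sum of the small over that of the large subunit was 0.6004, 0.587 and 0.583 in the E18 samples and 0.565, 0.572 and 0.550 in the P5 samples. This ratio was above every P5 value in each E18 sample. With 3 samples against 3 an exact two-sided permutation test cannot give a p under 0.1, so it was left as a description.

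The members with the largest changes belonged to both subunits. Rps27, of the small subunit, was at 3.18, 2.72 and 2.89 CPM in E18 replicates 1, 3 and 4 and at 1.66, 1.55 and 1.12 CPM in P5 replicates 6, 8 and 9 (log2 fold change 1.02 ± 0.22 (SE), adjusted p = 0.00715). These are very low levels for a core ribosomal protein and stand on 105 to 305 reads per sample, a point taken up below with other members of low count. Rpl7, of the large subunit, was at 536, 596 and 571 CPM at E18 and at 359, 326 and 268 CPM at P5 (0.84 ± 0.12, adjusted p = 0.001). Its lowest E18 value was far above its highest P5 value. Rps28 was at 128, 124 and 125 CPM against 75.4, 78.9 and 59.3 CPM (0.82 ± 0.12, adjusted p = 0.00111). Rpl35, whose start holds the longest pyrimidine run printed above, was at 164, 180 and 164 CPM against 101, 107 and 85.9 CPM (0.79 ± 0.10, adjusted p = 0.000837). In all of these the ages were fully separated, and P5 replicate 9 was the lowest sample.

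At the other end stood members that did not pass the test. Rpl3, which lies near the peptidyl transferase centre and is among the most abundant members, was at 500, 477 and 520 CPM at E18 and 484, 434 and 412 CPM at P5 (log2 fold change 0.17 ± 0.090, adjusted p = 0.159). Its ages overlapped, although its read count was high. Much of its sequence also occurs in other genes, as given below, so a high count alone does not make its level certain. Rps4l was at 38.9, 34.0 and 42.0 CPM against 34.5, 44.0 and 41.0 CPM (-0.06 ± 0.12, adjusted p = 0.74), and Rps27l at 18.29, 16.6 and 14.04 CPM against 14.5, 15.3 and 13.4 CPM (0.18 ± 0.13, adjusted p = 0.294). Rpl38, a large subunit protein known from mouse mutants with skeletal patterning defects, was at 135, 133 and 134 CPM against 119, 124 and 107 CPM (0.20 ± 0.088, adjusted p = 0.0930). Here each E18 sample was above each P5 sample, but the difference did not pass, except without P5 replicate 8 (adjusted p = 0.0384). Rps25, a small subunit protein with a role in initiation on some viral RNAs, was likewise separated, at 253, 262 and 244 CPM against 225, 227 and 191 CPM (0.24 ± 0.094, adjusted p = 0.0694), and it too passed without P5 replicate 8 (adjusted p = 0.0475). The remaining 3 that did not pass, Rpl34, Rpl26 and Rpl3l, had under 5 CPM in every sample.

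Members were next taken by their place in the ribosome. The P stalk, which recruits the elongation factors, is formed by Rplp0, Rplp1 and Rplp2, and all 3 were higher at E18 (median log2 fold change 0.68). Rplp0, the scaffold of the stalk, was at 589, 582 and 603 CPM at E18 and at 366, 407 and 302 CPM at P5 (0.72 ± 0.11, adjusted p = 0.00166). Rplp2 was at 113, 91.4 and 99.97 CPM against 62.4, 69.1 and 58.2 CPM (0.68 ± 0.11, adjusted p = 0.00191). Rplp1, its partner in the stalk dimers, had the smallest value of the 3, at 180, 150 and 178 CPM against 138, 139 and 120 CPM (0.36 ± 0.11, adjusted p = 0.0241). The call of Rplp1 was lost without E18 replicate 1, E18 replicate 4, P5 replicate 6 or P5 replicate 9, with adjusted p from 0.0526 to 0.0876.

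Rpl5 and Rpl11 bind the 5S ribosomal RNA and, when free, hold back Mdm2 and so stabilize p53. Both were higher at E18. Rpl5 was at 359, 373 and 355 CPM at E18 against 260, 247 and 219 CPM at P5 (0.58 ± 0.090, adjusted p = 0.00162), and Rpl11 at 253, 246 and 239 CPM against 177, 178 and 154 CPM (0.54 ± 0.090, adjusted p = 0.00227). For each the spread within an age was small beside the gap between ages.

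Around the exit of the peptide tunnel lie Rpl17, Rpl19, Rpl22, Rpl23a, Rpl26, Rpl31, Rpl35 and Rpl39, and 7 of these 8 were higher at E18 (median 0.54). Rpl23a, the docking site of the signal recognition particle, was at 259, 279 and 267 CPM against 186, 168 and 141 CPM (0.70 ± 0.11, adjusted p = 0.00174). Rpl17 was at 371, 403 and 372 CPM against 268, 274 and 212 CPM (0.60 ± 0.11, adjusted p = 0.00347). Rpl31, which anchors a chaperone of newly made chains, was at 259, 284 and 277 CPM against 205, 191 and 156 CPM (0.57 ± 0.11, adjusted p = 0.00451). In each of these 3 P5 replicate 9 was the lowest sample and the ages did not overlap. Rpl22 (217, 218 and 221 CPM against 155, 177 and 128 CPM, 0.51 ± 0.12, adjusted p = 0.00972) and Rpl19 (293, 292 and 297 CPM against 225, 218 and 195 CPM, 0.47 ± 0.086, adjusted p = 0.00331) were higher as well. Rpl39 was at 175, 160 and 167 CPM against 148, 127 and 106 CPM (0.40 ± 0.12, adjusted p = 0.0297), and its call was lost when any 1 sample but P5 replicate 6 was left out (adjusted p from 0.0567 to 0.088). Rpl26, the exception, was listed at 0.615, 0.598 and 0.773 CPM against 0.744, 0.620 and 0.861 CPM (-0.16 ± 0.27, adjusted p = 0.645).

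On the small subunit, Rps2 and Rps3 line the channel through which mRNA enters, and both were higher. Rps3, which also has a role in DNA repair, was at 365, 363 and 354 CPM against 249, 259 and 219 CPM (0.57 ± 0.089, adjusted p = 0.00165). Rps2 was at 272, 275 and 272 CPM against 231, 226 and 203 CPM (0.31 ± 0.084, adjusted p = 0.0176), one of the smallest changes that passed, and it was lost without any of the 3 E18 samples (adjusted p from 0.0513 to 0.0669). The E18 values of Rps2 differed by only a few CPM.

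Some ribosomal proteins are made as fusions with ubiquitin or a ubiquitin-like protein, which is cut off after synthesis. Rps27a, a member, was at 204, 212 and 196 CPM against 167, 157 and 133 CPM (0.42 ± 0.10, adjusted p = 0.0116, or 0.0506 without E18 replicate 3). Fau, which carries the ubiquitin-like kind of fusion, lies outside the symbol rule and was at 122, 121 and 125 CPM against 76.5, 83.9 and 71.2 CPM (0.67 ± 0.091, adjusted p = 0.000913). Both were higher at E18, and in each all 3 E18 samples were above all 3 P5 samples.

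Paralogs with like names were counted along with the genes they are named after, and 4 of 8 tested were higher and 0 lower. The higher ones were Rpl10, Rpl39, Rps4x and Rps27. The paralogs Rpl3l, Rps4l and Rps27l did not pass, and neither did Rpl3. Rps4x was at 444, 454 and 451 CPM against 348, 327 and 265 CPM (0.52 ± 0.11, adjusted p = 0.0058), an order of magnitude above its relative Rps4l, whose values are given above. Rpl10, a late-joining protein at the heart of the large subunit, was at 394, 391 and 407 CPM against 294, 271 and 219 CPM (0.60 ± 0.11, adjusted p = 0.00368), while Rpl10l, known from testis, had 0 reads in every sample. Rpl3l, known from heart and skeletal muscle, was at 0.362, 0.2497 and 0.298 CPM against 0.192, 0.213 and 0.298 CPM (0.36 ± 0.34, adjusted p = 0.416). Rpl39l, also known from testis, had 0 to 4 reads per sample. Rpl10l and Rpl39l are the members that did not pass the filter on low counts. Rps27l, at 13.4 to 18.29 CPM, was above Rps27 in every sample (1.12 to 3.18 CPM). Near-identical copies can share reads, which limits comparisons between paralogs.

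Because most members moved together, each was also tested against the members' own total, with the same quasi-likelihood test fitted over all genes but with each sample scaled by its summed ribosomal protein reads. On this scale a value near 0 means that a gene kept its share of the ribosomal protein reads. Of the 78 members 71 did not pass, 68 lay within 0.25 of 0 on the log2 scale, 2 were above the total at E18 and 5 below it, while over all genes 4.99% were above and 57.5% below, since the total itself was higher at E18. The p-values were adjusted over all genes, most of which passed because of this scaling. The adjusted p of a member is therefore more lenient here than an adjustment over the 78 members alone, which was not run.

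**Figure D3:**
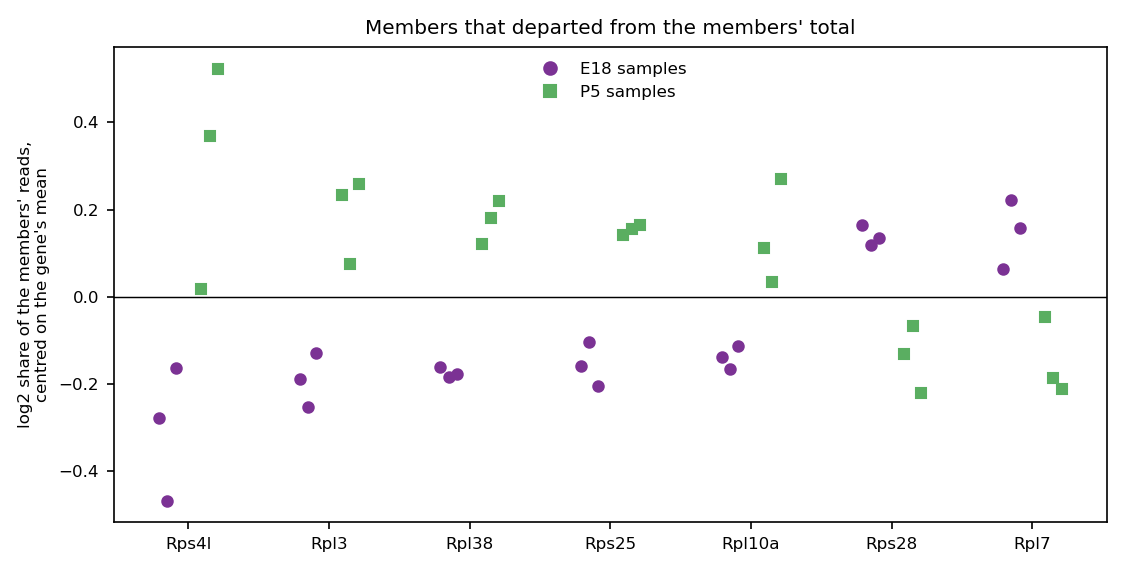
Share of the members' reads taken by each of the 7 members that departed from the members' total, on a log2 scale centred on the gene's mean, with circles for the 3 E18 and squares for the 3 P5 samples. Rps4l, Rpl3, Rpl38, Rps25 and Rpl10a took a lower share at E18 and Rps28 and Rpl7 a higher one, and within each gene the ages do not overlap.

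The members below the total took a larger share at P5. Rps4l took 0.214%, 0.188% and 0.232% of the members' reads at E18 and 0.263%, 0.335% and 0.373% at P5 (log2 difference -0.62 ± 0.15, adjusted p = 0.00622), and it alone of the 7 passed with any 1 sample left out. Rpl3 took 2.75%, 2.63% and 2.87% against 3.69%, 3.30% and 3.75% (-0.38 ± 0.10, adjusted p = 0.00907, or 0.0553 without E18 replicate 3). Rpl38 took 0.746%, 0.734% and 0.738% against 0.906%, 0.945% and 0.970% (-0.35 ± 0.10, adjusted p = 0.0128). In Rpl38 the E18 samples differed little and all 3 P5 samples were clearly above them. Rps25 took 1.39%, 1.45% and 1.35% against 1.71%, 1.73% and 1.74% (-0.31 ± 0.098, adjusted p = 0.0198). Rpl10a, at 137, 135 and 140 CPM against 118, 112 and 110 CPM, was higher in level at E18 (0.27 ± 0.079, adjusted p = 0.0232, from 0.0553 to 0.0795 without any 1 E18 sample or P5 replicate 9) but by less than the total, and its share was 0.756%, 0.743% and 0.769% against 0.899%, 0.852% and 1.00% (-0.28 ± 0.11, adjusted p = 0.0441). Above the total were Rpl7, with 2.95%, 3.29% and 3.14% against 2.73%, 2.48% and 2.44% (0.30 ± 0.10, adjusted p = 0.0299), and Rps28, with 0.704%, 0.683% and 0.690% against 0.574%, 0.601% and 0.539% (0.28 ± 0.10, adjusted p = 0.0399). The calls of Rpl38, Rps25, Rpl10a, Rpl7 and Rps28 were lost without any 1 E18 sample, with adjusted p from 0.0594 to 0.150, those of Rpl10a also without P5 replicate 6 (0.0526) or 9 (0.0634), and that of Rpl7 also without P5 replicate 8 (0.0556).

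Levels can be set side by side only per length, and the coding length of the GENCODE M21 annotation was used, since the transcript ends behind the counts are not known. Per kilobase of coding sequence, the members with at least 10 CPM at P5 had a median of 490 CPM at E18 and 333 CPM at P5. The highest 5 by this measure were Rpl41, Rps24, Rps29, Rpl39 and Rpl23, all higher at E18. Rpl41, whose coding sequence of 78 bases is the shortest of the members, had a mean of 3338 CPM per kilobase at E18 and 2543 at P5, and its untranslated ends, which also yield reads, inflate this measure. Rps24 had 1143 against 771 CPM per kilobase, Rps29 1073 against 689, Rpl39 1073 against 813 and Rpl23 827 against 545. In level, Rpl41 was at 256, 262 and 263 CPM against 208, 202 and 185 CPM (0.39 ± 0.083, adjusted p = 0.0061), and Rps24 at 435, 488 and 435 CPM against 328, 318 and 269 CPM (0.57 ± 0.10, adjusted p = 0.00305). Rps29 was at 207, 164 and 179 CPM against 124, 134 and 95.8 CPM (0.64 ± 0.14, adjusted p = 0.0071), and Rpl23 at 348, 362 and 339 CPM against 254, 243 and 195 CPM (0.60 ± 0.11, adjusted p = 0.00332). Across 72 members over 10 CPM at P5, the log2 fold change showed hardly any relation to coding length (Pearson's r = 0.000983). The same held for the mean level at P5 (r = -0.08), which is itself a part of the fold change. Both are descriptions over genes that share the same 6 libraries.

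Ribosomal protein genes have many processed copies in the genome, and how reads that match several places were counted is not stated. The coding stretch of each member, with 50 bases on each side, was cut into 100-base windows and compared with the GENCODE M21 transcripts of all other genes. A median of 57.1% of a member's windows also occurred in another gene. The 8 tested members without any shared window included 6 that were higher at E18, among them Rps3, Rps21, Rpl22, Rpl32 and Rpl41, with a median of 0.47 over the 8. Where up to 50% of windows were shared, 19 of 21 were higher (median 0.61), and above 50% 44 of 47 (median 0.56). For members that departed from the members' total, the shared part was 87.0% for Rpl10a, 81.9% for Rpl3, 57.3% for Rps28 and 55.6% for Rpl38. It was 52.2% for Rps25 and 36.9% for Rpl7, while Rps4l had no matched coding transcript and was not compared. The members with low counts were Rpl30 (4.65 to 8.74 CPM), Rpl34 (3.04 to 4.44 CPM), Rps27 (1.12 to 3.18 CPM) and Rpl26 (0.598 to 0.861 CPM), each of which encodes a core protein that every ribosome holds, so their listed levels and fold changes are uncertain. Shared windows made up 44.5% for Rpl30, 33.8% for Rpl34 and 36.8% for Rpl26, each below the median of 57.1%. Rps27 had no matched coding transcript and was not compared. The cause of the low counts was not tested.

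**Figure D4:**
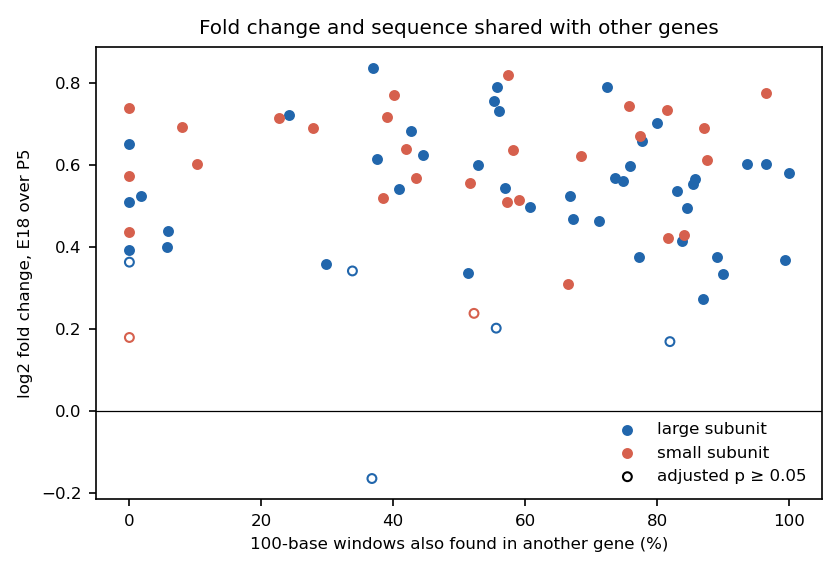
Log2 fold change of E18 over P5 against the percentage of a member's 100-base windows that also occur in another gene, for tested members with a coding transcript in the annotation, blue for the large and red for the small subunit, open for an adjusted p of 0.05 or more. Members without shared windows (median 0.47) and members with over 50% shared windows (median 0.56) both lie mostly above 0.

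The members were also counted by other features of their genes. Introns of the members hold 53 small nucleolar RNA (snoRNA) genes, and 27 of 28 tested host genes were higher (median 0.59), as were 43 of 50 members that host none (median 0.54). Genes with a start that holds a pyrimidine run of at least 8 bases were higher in 23 of 26 (median 0.57) and those without in 28 of 31 (median 0.52). In the 300 bases from 250 before to 50 after the start, the sense strand held CTTTCC at 38.0% of member starts against 14.1% of all starts, and CTCTTT at 36.6% against 12.1%, motifs that can overlap each other and the pyrimidine run. On the antisense strand CTTTCC was found at 19.7% of member starts against 14.4%. CCGGAAG, the core bound by ETS factors, a family that includes Elk-1, was found on either strand at 25 of 71 member starts (35.2%) against 8.86% of all starts, AAGATGG, the core bound by Yy1, at 15.5% against 6.34%, and TATAAA at 8.45% against 13.6%. These matches describe the letters near the starts and say nothing of binding in these cells. The members lie on 19 chromosomes, with 14 of them on chromosome 7.

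Mutations in many of these genes cause Diamond-Blackfan anemia in humans, an inherited failure of red cell production. Of 19 such genes on a list of them, 18 were higher at E18 (median 0.57), with Rpl26 as the exception. Among those not yet described, Rps19, the gene most often affected in patients, was at 199, 189 and 198 CPM against 144, 145 and 109 CPM (0.56 ± 0.12, adjusted p = 0.00661).

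Ribosomal protein genes that the symbol rule leaves out were mostly higher too, with 5 of 8 tested higher and 1 lower. Rpsa, of the small subunit and also known as a laminin receptor, was at 503, 508 and 511 CPM against 403, 407 and 351 CPM (0.39 ± 0.087, adjusted p = 0.00763). Gnb2l1, which encodes the scaffold protein Rack1 on the small subunit, was at 439, 445 and 454 CPM against 302, 290 and 252 CPM (0.66 ± 0.092, adjusted p = 0.00101), and Rps3a1 at 414, 435 and 416 CPM against 307, 321 and 252 CPM (0.52 ± 0.10, adjusted p = 0.00487). Both were separated between the ages. No paralog on this list passed as higher. Rpl22l1 was lower at E18, at 44.0, 36.9 and 38.8 CPM against 69.9, 42.0 and 57.3 CPM (-0.50 ± 0.17, adjusted p = 0.0447), though its ages overlapped and the call was lost without any 1 sample other than P5 replicate 8 (adjusted p from 0.0611 to 0.151). Rpl7l1 was at 51.1, 52.7 and 49.1 CPM against 41.6, 49.4 and 47.4 CPM (0.14 ± 0.098, adjusted p = 0.262), and Rpl36al at 35.9, 35.1 and 38.8 CPM against 40.1, 32.7 and 37.6 CPM (-0.01 ± 0.11, adjusted p = 0.963). Rps27rt had 0 reads in every sample.

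Other mRNAs that carry a TOP tract were also mostly higher at E18. Of 15 on the list 13 were higher at E18 and 0 lower (median log2 fold change 0.41), and their summed level was 11547, 12332 and 12468 CPM at E18 and 8312, 8652 and 7024 CPM at P5. Hnrnpa1, a splicing factor, had the largest change, at 30.8, 37.0 and 30.2 CPM against 12.8, 15.04 and 9.45 CPM (1.40 ± 0.18, adjusted p = 0.000709). Eef2, which moves the ribosome along the mRNA, was at 2461, 2461 and 2697 CPM against 1391, 1564 and 1391 CPM (0.81 ± 0.086, adjusted p = 0.000362), and Tpt1, a growth-related protein, at 403, 452 and 426 CPM against 294, 295 and 212 CPM (0.68 ± 0.13, adjusted p = 0.00446). As with the ribosomal proteins, P5 replicate 9 had the lowest sum.

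Transcripts that host snoRNAs and also begin with a TOP tract were higher in 5 of 6 (median 0.66). Snhg1 was at 63.3, 63.3 and 58.8 CPM against 34.5, 36.3 and 22.8 CPM (0.99 ± 0.17, adjusted p = 0.00227), Snhg5 at 59.2, 65.0 and 56.8 CPM against 41.5, 40.8 and 23.6 CPM (0.77 ± 0.20, adjusted p = 0.0135) and Snhg12 at 33.2, 31.0 and 32.1 CPM against 21.7, 21.1 and 15.2 CPM (0.73 ± 0.14, adjusted p = 0.00432). The spliced products of these genes make no known protein, and the values are again lowest in P5 replicate 9.

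Among elongation factors 4 of 8 were higher and 1 lower (median 0.32). Eef1a1, which brings aminoacyl-tRNA to the ribosome, was at 6057, 6750 and 6732 CPM against 4647, 4678 and 3644 CPM (0.59 ± 0.11, adjusted p = 0.00345). Eef1a2, its counterpart in mature neurons and muscle, moved the other way, at 86.1, 77.3 and 86.6 CPM against 196, 160 and 271 CPM (-1.33 ± 0.18, adjusted p = 0.000858). Eef1a2 was at its highest in P5 replicate 9, where Eef1a1 was at its lowest.

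Among the factors that build ribosomes, most genes passed in neither direction. Of 37 ribosome biogenesis genes 8 were higher, 3 lower and 26 neither (median 0.12), that is 21.6% higher and 8.11% lower against 20.8% and 22.5% of all genes tested. Fbl, the methyltransferase of ribosomal RNA, was at 19.0, 20.8 and 20.4 CPM against 13.7, 12.6 and 12.3 CPM (0.64 ± 0.11, adjusted p = 0.00221), and Dkc1, the pseudouridine synthase, at 28.8, 26.6 and 23.5 CPM against 16.2, 21.1 and 15.1 CPM (0.59 ± 0.15, adjusted p = 0.0132, lost without E18 replicate 1 or P5 replicate 6). Pno1, which acts in small subunit maturation, was lower, at 18.31, 19.1 and 18.08 CPM against 32.7, 29.8 and 34.7 CPM (-0.81 ± 0.10, adjusted p = 0.000729). Of 6 chaperones dedicated to single ribosomal proteins 0 were higher and 1 lower (median 0.07). The lower one, Heatr3, which acts with Rpl5, was at 39.4, 41.8 and 41.5 CPM against 52.7, 49.99 and 51.0 CPM (-0.32 ± 0.085, adjusted p = 0.0155), and its call was lost without any 1 E18 sample (adjusted p from 0.0532 to 0.0853).

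RNA polymerase I, which makes the ribosomal RNA precursor, and its factors gave 4 higher (28.6%) and 1 lower of 14 (median 0.05). Polr1c, a subunit shared with RNA polymerase III, was at 40.9, 42.8 and 41.6 CPM against 24.8, 26.6 and 22.5 CPM (0.76 ± 0.10, adjusted p = 0.000838). Twistnb (0.42 ± 0.13, adjusted p = 0.0284) and Taf1d (0.41 ± 0.13, adjusted p = 0.0306) were also higher, and both calls were lost when any 1 sample but P5 replicate 8 was left out (adjusted p from 0.054 to 0.102). Of 19 regulators of ribosomal protein synthesis 5 were higher (26.3%) and 3 lower (median 0.13), where 20.8% of all genes tested were higher and 22.5% lower. Eif4ebp2, a repressor of cap-dependent initiation under mTOR, was at 11.9, 13.3 and 10.3 CPM against 4.75, 6.36 and 3.32 CPM (1.30 ± 0.23, adjusted p = 0.00298). Mycl, of the Myc family, was at 53.2, 59.2 and 60.2 CPM against 24.3, 43.6 and 15.8 CPM (1.04 ± 0.30, adjusted p = 0.0233, lost without E18 replicate 3 or P5 replicate 6), and Larp4, which binds poly(A) tails, at 81.2, 83.0 and 77.5 CPM against 116, 131 and 132 CPM (-0.65 ± 0.089, adjusted p = 0.000999).

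**Figure D5:**
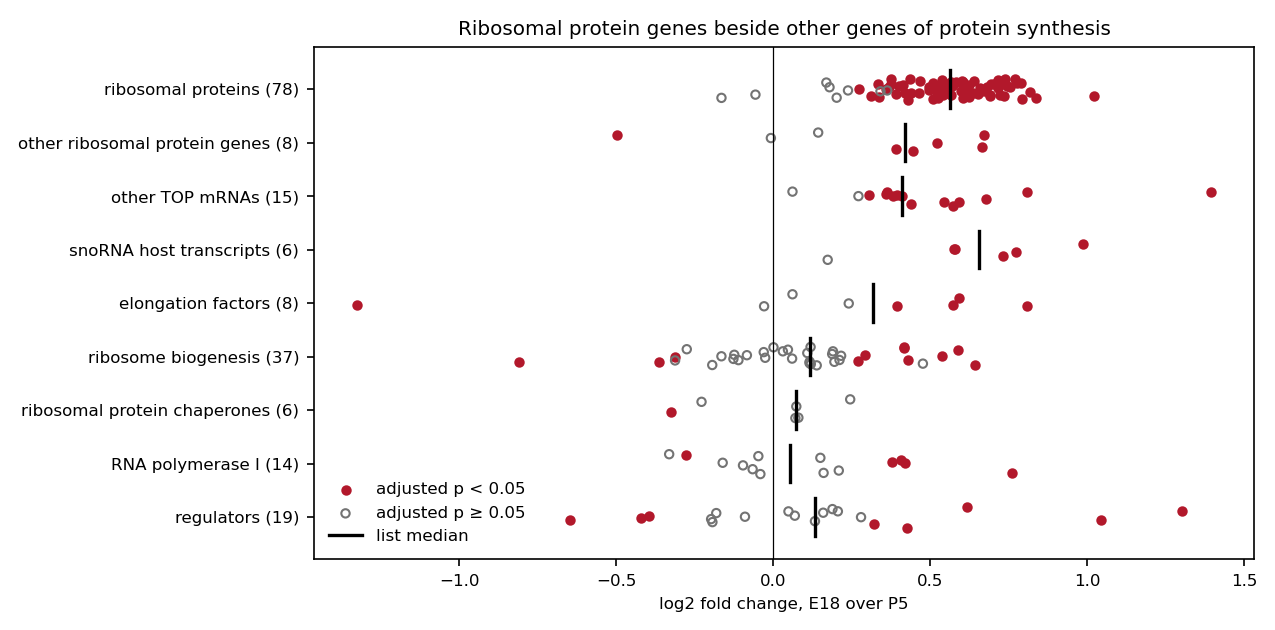
Log2 fold change of E18 over P5 for each tested gene of the ribosomal proteins and of 8 other lists of protein synthesis, with the number tested in brackets, filled red for an adjusted p under 0.05, open otherwise, and a black bar at the median. Medians are 0.56 for the ribosomal proteins, 0.41 for other TOP mRNAs, 0.66 for snoRNA host transcripts and 0.12 for ribosome biogenesis.

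Spread within an age differed between the ages. The median coefficient of variation of the tested members was 3.34% over the E18 samples, against 7.94% for all genes tested, and 10.99% over the P5 samples, against 14.8%. P5 replicate 9 was the lowest P5 sample for 73 of the 78 members, against 33.1% of all genes tested. Among the E18 samples no replicate stood out, with replicate 1 highest for 31 members, replicate 3 for 25 and replicate 4 for 22. Without P5 replicate 9 66 members were higher (median 0.49), without E18 replicate 1 64 were higher (median 0.55), and without both, which leaves 2 samples per age, 53 were higher (median 0.49) while 9.44% of all genes were. Without E18 replicates 1 and 3, which leaves 1 E18 sample that is assumed to vary like the P5 samples, 21 members were higher (median 0.57) while 3.81% of all genes were, and no departure from the members' total passed. In none of these was any member lower.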

How the data were processed

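RNA from immunopanned RGCs of 3 E18 and 3 P5 samples was analysed, grouped by the titles of the samples. By the protocol, the libraries were depleted of ribosomal RNA, whereas the labels name polyA RNA. The libraries were sequenced as paired-end reads, and these were aligned to mm10 with STAR and counted on RefSeq genes with HT-seq. The authors deposited the raw counts used here. The deposited table also holds a normalized signal per sample (counts adjusted for library size), together with log2 fold changes, p-values and a rank score from the authors' edgeR comparison, none of which was used. The strand setting and the handling of multi-mapped reads are not given in the sources used here.

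Counts were scaled by TMM and filtered with filterByExpr, and the 16449 remaining genes were tested for E18 over P5 by quasi-likelihood (edgeR 4.0.16, R 4.3.3), with p-values adjusted after Benjamini and Hochberg over all of them and called under 0.05. Samples of one age differed by more than sampling noise (chi-square per degree of freedom 30.5 to 141). In simulated counts for this comparison, over 16295 genes, 25 of 100 genes changed 1.5-fold and 71 of 100 changed 2-fold were recovered, with 12 false calls. Only these genes were changed there, whereas 43.4% of all genes tested were called in the data. The adjustment is stricter where few genes change, and the changed genes were drawn from a wide range of levels. These rates therefore do not give the power for the members. Motifs were searched on the strands named, and sequences are from RefSeq on GRCm38.p6. Named genes are the 5 largest and 5 smallest changes, the members of the structural lists, the departing members, the 5 highest levels per length, members not tested and up to 3 genes of each other list. Rps6, Rps10, Rps16, Rps19, Rps21, Rpl30, Rpl32, Rpl34, Tfap2b, Sox2 and Kdr were named after their values were seen. A few genes that this rule names are not reported here. The members and lists were chosen with earlier results of these data known. Alternatives were DESeq2 1.42.0, other scalings, tests and filters, and leaving out samples.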

Additional observations from a re-analysis of the deposited data

How the results depend on the processing

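The count of members higher at E18 was 70 under DESeq2, upper-quartile and RLE scaling, TMM without the members, the exact, likelihood ratio and robust tests and both other filters, and 69 with total counts only. It ranged from 64 to 71 when 1 sample was left out, and was 53 without both E18 replicate 1 and P5 replicate 9 and 21 without both E18 replicates 1 and 3, 2 alternatives chosen after seeing the data, with 0 lower in every setting. The median log2 fold change was 0.49 to 0.59 with 1 sample left out and 0.54 to 0.57 under the other settings, and the log2 ratio of the summed levels 0.46 to 0.57 and 0.52 to 0.56. Departures from the members' total were less stable. The number above the total, 2 with all samples, was 1 against the median member and 0 to 4 with 1 sample left out, and the number below, 5 with all samples, was 1 to 7. Without E18 replicate 1 and P5 replicate 9 they were 1 and 3, and without E18 replicates 1 and 3 both were 0. The departure of Rps28 was lost against the median member (adjusted p = 0.0638), and the call of Rpl22l1 under upper-quartile scaling (adjusted p = 0.0590). Genes near 0 changed sign without passing the test. With 1 sample left out, the log2 fold change of Rpl36al was -0.104 to 0.042 (0.01 without E18 replicate 1, 0.03 without E18 replicate 3, 0.0072 without P5 replicate 9) and that of Rps4l -0.165 to 0.027 (0.0020 without P5 replicate 8). Without E18 replicate 1 and P5 replicate 9 Rpl36al was at 0.02 and Rpl26 at 0.0045, and without E18 replicates 1 and 3 Rpl26 was at 0.0705, Rps4l at 0.088, Rpl36al at 0.087 and Rps27l at -0.027. With 1 sample left out Rpl26 was lowest, at -0.30, without P5 replicate 8, and Rps27l highest, at 0.28, without E18 replicate 4. The cause of these changes was not tested. With 2 samples or 1 left in an age, the test pools the spread over both ages. No paired analysis was possible because the ages share no replicate number. Counts of multi-mapped reads limit the members with near-identical copies.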
